A study of Macaca mulatta with 33 samples.

Results

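Liver RNA was compared between macaque offspring of mothers on a western-style diet (WSD) and offspring of mothers on a control diet (CD), among the animals whose number in the sample title is below 31000. This range holds 14 of the 33 livers in the study. Groups are written as the diet of the mother, given while she was pregnant and nursing, followed by the diet of the offspring after weaning. The 14 animals comprised 5 WSD/WSD, 3 CD/WSD, 2 WSD/CD and 4 CD/CD offspring, so 7 animals had WSD mothers and 7 had CD mothers. Each liver was taken at 3 years of age and gave 1 library. The design text calls the animals Japanese macaques, while the organism field reads Macaca mulatta. The labels used here give no sex, relatedness or collection date, and they do not say what the number ranges stand for, so the p-values take the animals as independent.

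The liver makes most plasma proteins, bile acids and lipoproteins, stores and releases glucose, and turns ammonia into urea. Insulin, glucagon, glucocorticoids and bile acids set many of these genes through nuclear receptors and their coregulators. Immediate early genes, which encode transcription factors and RNA-binding proteins, respond within a short time to hormones and other stimuli.

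Values are FPKM, sequenced fragments of a gene scaled to its transcript length and to the mapped fragments in the library. Differences are log2 fold changes of FPKM + 1 from limma, WSD mothers over CD mothers, given with their standard error (SE). A gene passed when its Benjamini-Hochberg adjusted p over the 12572 tested genes was under 0.05. The +1 makes the change of a gene with low FPKM look smaller than it was.

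The 14 libraries each had 15692 to 17298 genes above 0 FPKM, and their relative depth, a rough estimate from the lowest values, ran between 0.525 and 1.49. The first principal component held 49.0% of the variance and separated WSD-weaned from CD-weaned animals. The WSD-weaned animals were numbered 30155 to 30399 and the CD-weaned ones 30586 to 30734. Weaning diet and number order therefore cannot be told apart among these livers. Both WSD/CD libraries stood apart: 240 genes (1.91%) were above all other 31 libraries in both, and 73 (0.581%) were under all of them. The mitochondrially encoded protein genes made up 1.66 ± 0.233% of summed FPKM in WSD/WSD (SD, n = 5), 1.69 ± 0.0835% in CD/WSD (n = 3), 2.95% and 6.94% in the WSD/CD livers and 3.08 ± 0.460% in CD/CD (n = 4). The maternal difference in this share was 0.916 percentage points (exact permutation test within weaning diet, two-sided, p = 0.225, with 0.00119 the smallest p possible), and it was -0.0828 without WSD/CD replicate 2. Y-linked genes were high in 2 of 5 WSD/WSD, 3 of 3 CD/WSD, 0 of 2 WSD/CD and 2 of 4 CD/CD livers. Their mean log2 level differed by -1.64 between maternal diets (exact permutation test, p = 0.0631, or 0.126 adjusted over the 2 such tests). Each liver was either at 0 to 0.0714 or at 2.94 to 3.15 on this scale, and the high level was found in 5 animals of CD mothers and 2 of WSD mothers. The Y-linked level thus went partly with maternal diet, and the maternal comparisons carry that difference too. The labels give no sex to set beside it.

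The markers matched the label of liver. Hepatocyte markers summed to 24040 to 33770 FPKM in WSD/WSD, 30840 to 34860 in CD/WSD, 15790 to 22450 in WSD/CD and 24210 to 30670 in CD/CD livers. None of the 16 was at 0 in all libraries. In bulk tissue, fewer cells of a type and less RNA per cell cannot be told apart.

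Across both weaning diets, no gene passed the adjustment in the limma fit. The smallest p-values among genes with higher levels in offspring of WSD mothers belonged to CYP2C19, PTRH2, TAF1D, CCDC86 and FZD8, and among genes with lower levels to APOH, OTC, MAP3K13, RNLS and ADK. At an unadjusted p under 0.05, 1627 genes (12.9%) differed, 747 higher (5.94%) and 880 lower (7.0%), and the median over all genes was 0.00. For 139 genes (1.11%) the animals of WSD and CD mothers did not overlap at either weaning diet, 38 higher (0.302%) and 101 lower (0.803%). Weighting both weaning diets equally, instead of fitting 1 common effect, 226 genes passed (1.8%), 139 of them higher (1.11%) and 87 lower (0.692%), but 48 (41 higher, 7 lower) without WSD/CD replicate 2. The fit without WSD/WSD replicate 1 called 41 (20 higher, 21 lower).

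**Figure D1:**
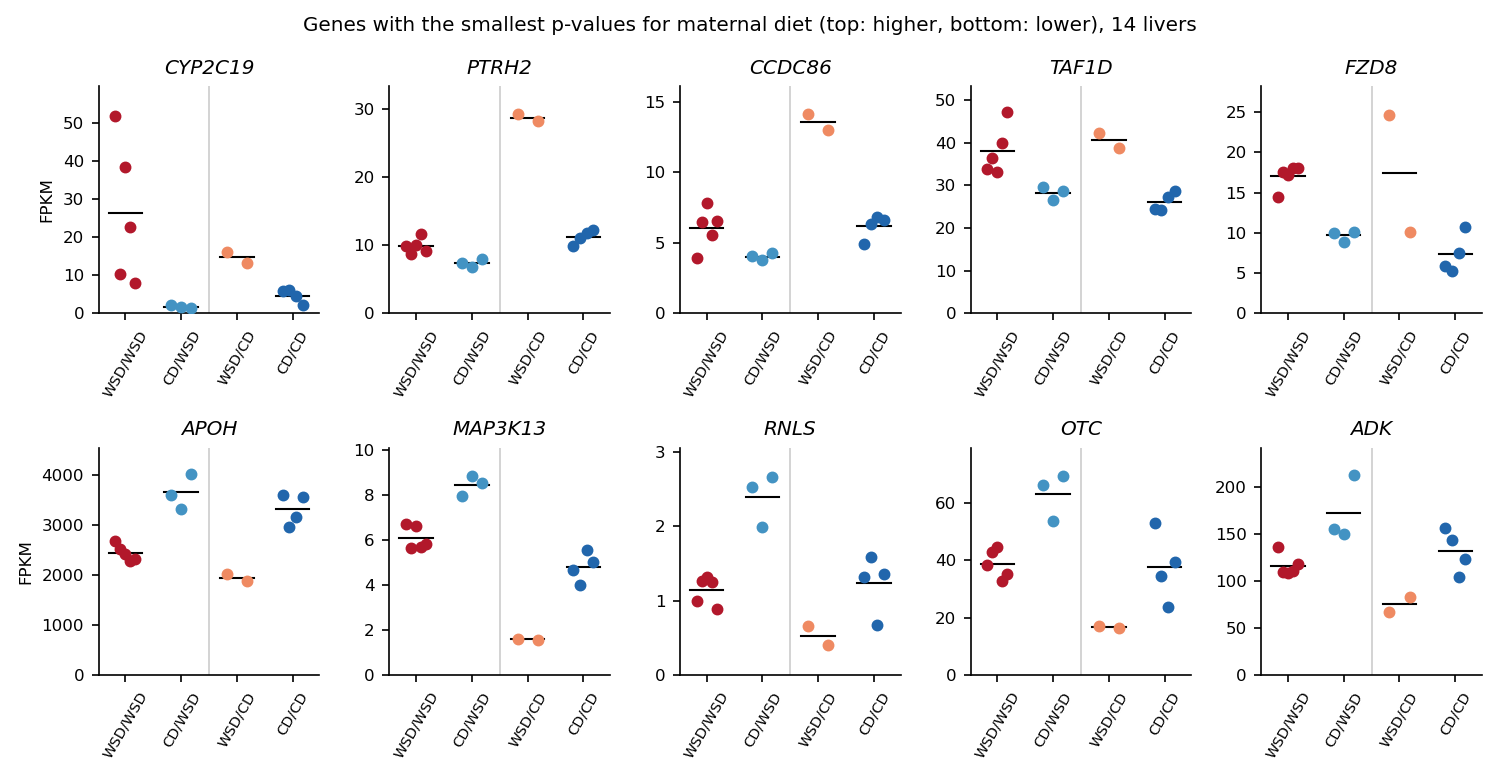
FPKM of the 10 genes with the smallest p-values for maternal diet, 5 higher (top) and 5 lower (bottom), in each of the 14 livers by group; points are animals and bars group means. The maternal groups are separate within each weaning diet for every gene shown except CCDC86, which overlaps among WSD-weaned animals, and FZD8, which overlaps among CD-weaned animals.

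CYP2C19, a cytochrome P450 of drug and steroid metabolism, had the largest difference among the 10 genes named by smallest p. It was at 51.8, 10.4, 38.6, 22.8 and 7.97 FPKM in WSD/WSD, 2.14, 1.61 and 1.44 in CD/WSD, 16.2 and 13.3 in WSD/CD and 5.95, 6.14, 4.46 and 2.27 in CD/CD livers. Every animal of a WSD mother was above every animal of a CD mother with the same weaning diet, with a wide spread among the WSD/WSD livers. The difference was 2.39 ± 0.40 (limma adjusted p = 0.133), and over 30 alternative fits the adjusted p ran between 0.00921 and 0.229. Macaque CYP2C genes have close copies that can share reads, so the value of this one is uncertain.

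PTRH2, a mitochondrial peptidyl-tRNA hydrolase, was at 9.85, 8.68, 10.1, 11.6 and 9.21 FPKM in WSD/WSD, 7.47, 6.84 and 8.01 in CD/WSD, 29.3 and 28.3 in WSD/CD and 9.92, 11.1, 11.8 and 12.2 in CD/CD livers. The WSD-weaned groups did not overlap, and the WSD/CD pair lay far above every other liver. Its difference was 0.75 ± 0.15 (limma adjusted p = 0.134). TAF1D, a subunit of the complex that recruits RNA polymerase I to ribosomal DNA, was at 33.8, 36.3, 33.2, 40.0 and 47.3 FPKM in WSD/WSD, 29.7, 26.7 and 28.6 in CD/WSD, 42.2 and 38.9 in WSD/CD and 24.5, 24.3, 27.3 and 28.6 in CD/CD livers. The groups did not overlap at either weaning diet (0.49 ± 0.10, limma adjusted p = 0.134). CCDC86, a nucleolar protein, was at 3.92, 6.50, 7.82, 5.55 and 6.57 FPKM in WSD/WSD, 4.06, 3.77 and 4.25 in CD/WSD, 14.1 and 12.97 in WSD/CD and 4.89, 6.33, 6.82 and 6.61 in CD/CD livers. One WSD/WSD animal lay among the CD/WSD animals, and the WSD/CD pair lay above all CD/CD livers (0.70 ± 0.14, limma adjusted p = 0.134). FZD8, a Wnt receptor, was at 14.5, 17.5, 17.2, 18.03 and 18.1 FPKM in WSD/WSD, 10, 8.90 and 10.2 in CD/WSD, 24.7 and 10.2 in WSD/CD and 5.86, 5.21, 7.51 and 10.7 in CD/CD livers. The WSD-weaned groups were separate, while the WSD/CD animals differed from each other and one fell within the CD/CD range (0.88 ± 0.18, limma adjusted p = 0.134).

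APOH, a phospholipid-binding plasma protein made by hepatocytes, had the smallest p. It was at 2681, 2520, 2429, 2283 and 2327 FPKM in WSD/WSD, 3609, 3333 and 4033 in CD/WSD, 2019 and 1881 in WSD/CD and 3596, 2955, 3154 and 3570 in CD/CD livers. All 7 animals of WSD mothers were under all 7 of CD mothers. Its difference was -0.65 ± 0.10 (limma adjusted p = 0.0772), and the adjusted p ran between 0.00474 and 1 over 30 alternatives.

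OTC, the mitochondrial urea cycle enzyme that makes citrulline, was at 38.5, 42.9, 44.6, 32.7 and 35.1 FPKM in WSD/WSD, 66.1, 53.6 and 69.5 in CD/WSD, 17.2 and 16.5 in WSD/CD and 53.0, 34.6, 23.7 and 39.3 in CD/CD livers. At each weaning diet the animals of WSD mothers lay under those of CD mothers (-0.84 ± 0.16, limma adjusted p = 0.134). MAP3K13, a kinase upstream of JNK, was at 6.72, 5.64, 6.64, 5.68 and 5.80 FPKM in WSD/WSD, 7.94, 8.83 and 8.55 in CD/WSD, 1.60 and 1.56 in WSD/CD and 4.67, 4.02, 5.55 and 5.01 in CD/CD livers. It was lowest in the WSD/CD pair and did not overlap at either diet (-0.73 ± 0.13, limma adjusted p = 0.133). RNLS, which encodes the flavoenzyme renalase, was at 0.991, 1.26, 1.32, 1.25 and 0.894 FPKM in WSD/WSD, 2.53, 1.999 and 2.67 in CD/WSD, 0.657 and 0.399 in WSD/CD and 1.32, 1.59, 0.676 and 1.35 in CD/CD livers. The WSD/CD pair lay just under the lowest CD/CD liver (-0.61 ± 0.11, limma adjusted p = 0.134). ADK, adenosine kinase, was at 136, 109, 108, 110.5 and 118 FPKM in WSD/WSD, 156, 150.3 and 213 in CD/WSD, 67.3 and 83.0 in WSD/CD and 156, 143, 105 and 123 in CD/CD livers. It too separated at each weaning diet (-0.65 ± 0.13, limma adjusted p = 0.134). All 10 of these genes passed when both weaning diets were weighted equally. Without WSD/CD replicate 2, PTRH2, FZD8, APOH and MAP3K13 still did, while the limma adjusted p of the other 6 was between 0.0515 and 0.0979.

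Genes of hepatocyte identity and of bile acid synthesis, transport and control were mostly lower in offspring of WSD mothers, though none passed the adjustment. Of 15 tested hepatocyte markers, 0 were higher and 9 lower at an unadjusted p under 0.05 (median -0.31, against 0.00 for all genes), beside backgrounds of 5.94% and 7.0%. The 9 were APOH, AHSG, AMBP, ASGR2, F2, FOXA2, KNG1, SERPINC1 and TF. The median deviation of the list from the mean of CD mothers, on the log2 scale, was 0.08, -0.22, -0.18, -0.33 and -0.33 in the WSD/WSD livers and -0.29 and -0.76 in the WSD/CD livers. One WSD/WSD animal was therefore above that mean and the others were under it. AMBP, the precursor of 2 secreted plasma proteins, was at 1221 to 2239 FPKM in WSD/WSD, 2333 to 2712 in CD/WSD, 1357 to 1552 in WSD/CD and 1978 to 2713 in CD/CD livers (-0.57 ± 0.15, limma adjusted p = 0.148). FOXA2, a transcription factor of hepatocyte genes, was at 7.62 to 11.9 FPKM in WSD/WSD, 11.5 to 14.4 in CD/WSD, 4.47 to 8.73 in WSD/CD and 11.1 to 17.6 in CD/CD livers, overlapping slightly after WSD weaning (-0.68 ± 0.17, limma adjusted p = 0.139). The summed level of these markers, given above, was lowest in the WSD/CD livers, and its part in the other differences was not tested.

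**Figure D2:**
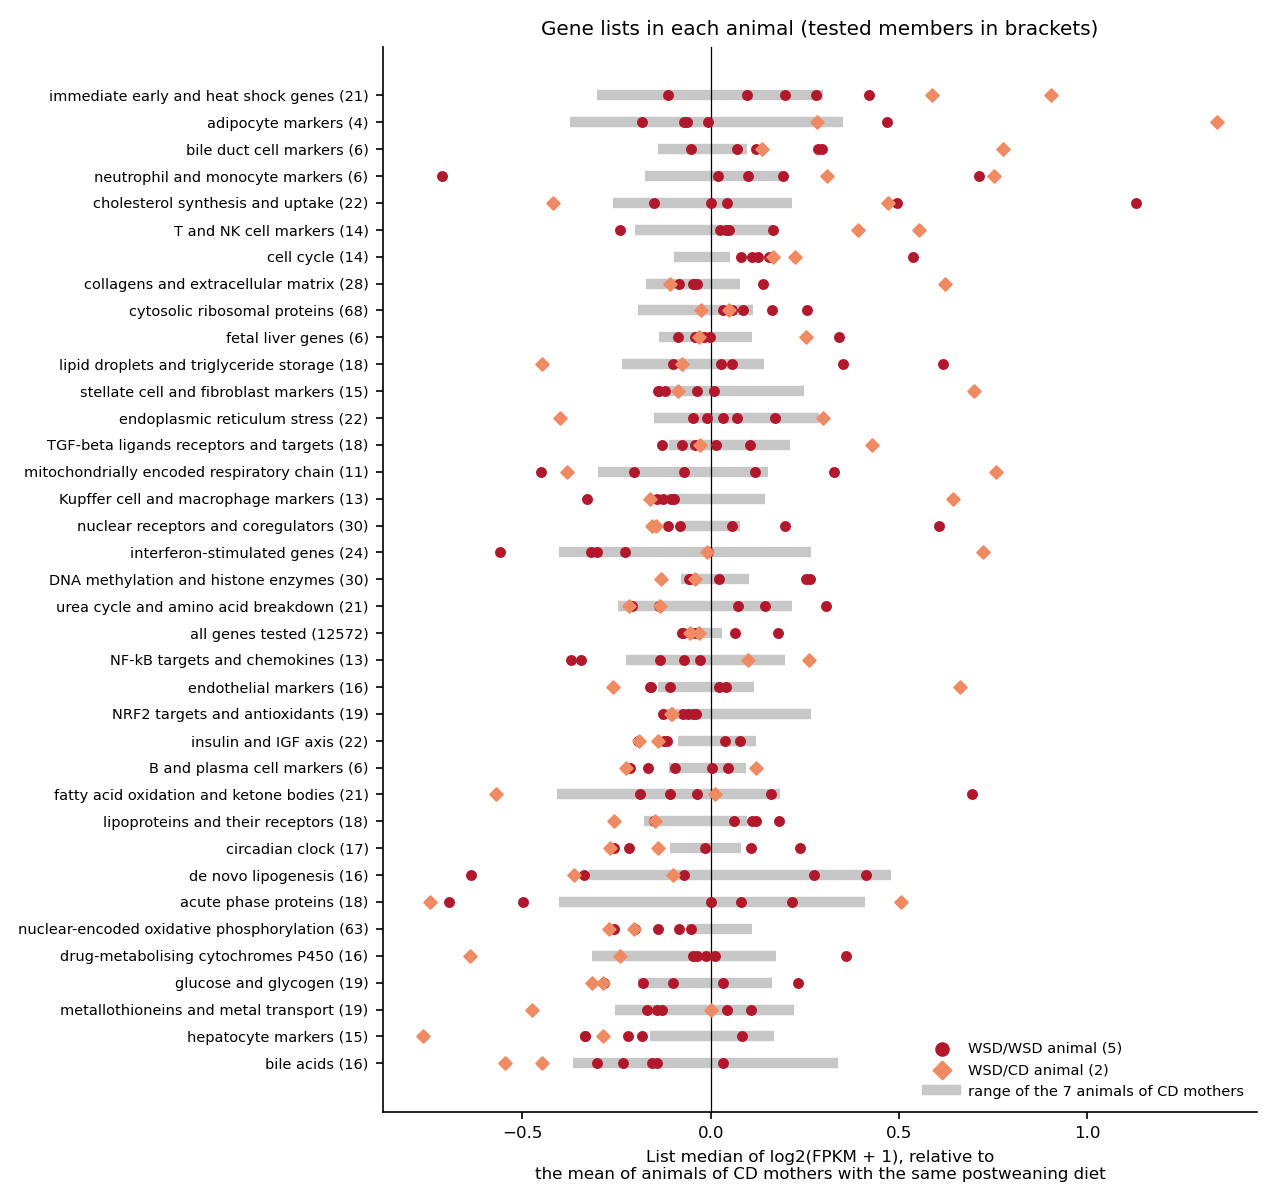
Median deviation of each gene list (rows, number of tested members in brackets) in every animal of a WSD mother, on the log2(FPKM + 1) scale relative to animals of CD mothers with the same weaning diet; grey bars span the 7 animals of CD mothers. Hepatocyte markers lie under 0 in 6 of 7 animals, and immediate early and heat shock genes are highest in the 2 WSD/CD animals.

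Of 16 bile acid genes, 0 were higher and 6 lower (median -0.33): ABCC2, CYP27A1, CYP7B1, NR0B2, SLC10A1 and SLC27A5. CYP27A1, the sterol hydroxylase that opens the alternative bile acid pathway, was at 90.2 to 111 FPKM in WSD/WSD, 112 to 118 in CD/WSD, 70.3 to 73.5 in WSD/CD and 93.7 to 131 in CD/CD livers and did not overlap at either diet (-0.40 ± 0.10, limma adjusted p = 0.149). SLC27A5, the bile acyl-CoA synthetase, was likewise separate at each diet (-0.69 ± 0.20, limma adjusted p = 0.176). NR0B2, the small heterodimer partner that represses bile acid synthesis, was at 13.7, 3.74, 3.81, 5.54 and 2.60 FPKM in WSD/WSD, 8.86, 8.82 and 11.3 in CD/WSD, 0.771 and 0.770 in WSD/CD and 5.24, 3.73, 10 and 5.41 in CD/CD livers. The WSD/CD livers had the lowest values, and WSD/WSD replicate 1 was the highest of all 14 (-1.28 ± 0.30, limma adjusted p = 0.139).

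Nuclear genes of the respiratory chain and ATP synthase had mostly small negative differences. Of 63 tested, 1 was higher and 20 were lower at an unadjusted p under 0.05, with a median of -0.18. COX8A, a small subunit of cytochrome c oxidase, was at 102, 104, 98.8, 98.6 and 108 FPKM in WSD/WSD, 162, 127 and 128 in CD/WSD, 114 and 118 in WSD/CD and 185, 183, 152 and 158 in CD/CD livers. No animal of a WSD mother reached any animal of a CD mother (-0.48 ± 0.09, limma adjusted p = 0.134). ATP5F1C, the gamma subunit of ATP synthase, differed by -0.57 ± 0.13 and overlapped between WSD/CD and CD/CD livers (limma adjusted p = 0.139). NDUFS4, an accessory subunit of complex I, differed by -0.44 ± 0.11 and did not overlap (limma adjusted p = 0.139). The list's deviations were -0.05, -0.20, -0.08, -0.26 and -0.14 in WSD/WSD and -0.20 and -0.27 in WSD/CD livers, all under the mean of CD mothers. None of 11 tested mitochondrially encoded genes differed at an unadjusted p under 0.05 (median 0.03).

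In glucose metabolism 3 of 19 genes were higher and 5 lower (median -0.20), and in the insulin and IGF axis 2 of 22 were higher and 4 lower (median -0.06). G6PC, which releases free glucose, was at 35.2, 108, 95.1, 63.9 and 113 FPKM in WSD/WSD, 59.1, 31.2 and 49.97 in CD/WSD, 48.3 and 58.0 in WSD/CD and 22.03, 10.4, 22.1 and 22.3 in CD/CD livers. One WSD/WSD animal lay among the CD/WSD animals, and the WSD/CD pair lay above all CD/CD livers (1.05 ± 0.28, limma adjusted p = 0.154). The glycogen branching enzyme GBE1 did not overlap at either diet (-0.53 ± 0.13, limma adjusted p = 0.139), and UGP2, which makes UDP-glucose for glycogen, differed by -0.91 ± 0.25 with overlap among WSD-weaned animals (limma adjusted p = 0.156).

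IGF1, the liver's main secreted growth factor, was at 1069, 725, 658, 839.5 and 515 FPKM in WSD/WSD, 1155, 1019 and 1605 in CD/WSD, 282 and 346 in WSD/CD and 702, 529, 438 and 674 in CD/CD livers. The ranges overlapped in WSD-weaned animals only (-0.80 ± 0.18, limma adjusted p = 0.139). IGFALS, which holds IGF1 in its circulating complex, differed by -0.56 ± 0.16 (limma adjusted p = 0.184). IGFBP1, an IGF-binding protein that insulin represses, was at 50.9, 190.2, 149, 40.9 and 124 FPKM in WSD/WSD, 55.2, 34.04 and 63.8 in CD/WSD, 569.9 and 436 in WSD/CD and 83.6, 53.5, 40.9 and 53.2 in CD/CD livers. The WSD/CD pair was far above every other animal below 31000 (1.84 ± 0.43, limma adjusted p = 0.139).

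Among lipid genes some were higher and some lower at an unadjusted p under 0.05, and none passed the adjustment. Over all genes 5.94% were higher and 7.0% lower at that level. Of 22 cholesterol genes, 3 were higher and 2 lower (median 0.19). INSIG1, a brake on cholesterol synthesis and one of the 3, was at 184, 434, 303, 391 and 574 FPKM in WSD/WSD, 197, 193 and 209.6 in CD/WSD, 475 and 352 in WSD/CD and 201, 125, 228 and 229.6 in CD/CD livers. One WSD/WSD liver lay under all CD/WSD livers, and the rest of the WSD-mother animals lay above their counterparts (0.93 ± 0.23, limma adjusted p = 0.139). IDI1, an isoprenoid isomerase, differed by 0.58 ± 0.21 (limma adjusted p = 0.270). CPT1A, the gate of mitochondrial fatty acid entry, was at 22.2 to 164 FPKM in WSD/WSD, 13.4 to 42.9 in CD/WSD, 84.6 to 125 in WSD/CD and 30.7 to 64.0 in CD/CD livers, and it overlapped widely after WSD weaning (1.20 ± 0.38, limma adjusted p = 0.196).

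In fatty acid oxidation 1 of 21 genes was higher and 1 lower (median -0.08), and the lower one was ETFA, an electron carrier of beta-oxidation, at -0.46 ± 0.12. Among 18 lipid droplet genes 1 was higher and 2 lower (median 0.05): the droplet coat protein PLIN2 (1.46 ± 0.52), the droplet enzyme HSD17B13 (-0.63 ± 0.20) and the triglyceride synthase DGAT2 (-0.36 ± 0.16). Of 18 lipoprotein genes 2 were higher and 1 lower (median -0.09). APOA4, an apolipoprotein of triglyceride-rich particles, differed by 1.52 ± 0.67, with 1 WSD/WSD liver at 594 FPKM and the other WSD/WSD livers at 18.04 to 88.0. De novo lipogenesis had 0 of 16 genes higher and 1 lower (median -0.12). The members with the largest moderated t were GPAM, the first step of glycerolipid synthesis (-0.69 ± 0.30), SCD, the stearoyl-CoA desaturase (-0.76 ± 0.38), and ACLY, the source of cytosolic acetyl-CoA (-0.22 ± 0.14), and none of the 3 passed the limma adjustment.

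Immediate early and heat shock genes had the highest median of the 27 pathway lists. Of 21 tested, 11 were higher and 0 lower at an unadjusted p under 0.05 (median 0.60): ATF3, DUSP1, EGR1, FOS, FOSL2, HSPB1, JUN, JUNB, JUND, KLF6 and ZFP36. FOSL2, a subunit of the AP-1 transcription factor, was at 2.46, 5.82, 4.90, 4.42 and 5.003 FPKM in WSD/WSD, 2.51, 2.37 and 4.02 in CD/WSD, 25.1 and 20.5 in WSD/CD and 1.62, 3.07, 2.07 and 2.61 in CD/CD livers. ATF3, a stress-induced transcription factor, was at 0.853, 2.24, 3.16, 1.92 and 3.21 FPKM in WSD/WSD, 1.24, 0.815 and 1.11 in CD/WSD, 17.9 and 12.6 in WSD/CD and 1.70, 2.78, 1.46 and 3.48 in CD/CD livers. In both genes 4 of 5 WSD/WSD livers lay above all CD/WSD livers and the WSD/CD pair stood far above the rest. The differences were 1.46 ± 0.34 for FOSL2 and 1.32 ± 0.29 for ATF3, each with limma adjusted p = 0.139. KLF6, a zinc finger factor of the same list, differed by 0.82 ± 0.21 (limma adjusted p = 0.139). Without both WSD/CD animals the differences of FOSL2, ATF3 and KLF6 were 0.47, 0.62 and 0.47.

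Of 22 endoplasmic reticulum stress genes, 4 were higher and 2 lower (median 0.05). ATF6, a membrane-bound sensor of misfolded protein, differed by 0.50 ± 0.17, HERPUD1, a degradation factor of that membrane, by 0.75 ± 0.26 and CHAC1, a glutathione-degrading enzyme, by 1.28 ± 0.42, and none of the 3 passed the limma adjustment. Without both WSD/CD animals the differences of ATF6 and HERPUD1 were 0.09 and 0.11, and CHAC1 was then under the level for testing. Coregulators and nuclear receptors had 4 of 30 higher and 3 lower (median 0.02). PPARGC1A, a coactivator of gluconeogenic and mitochondrial genes, was at 7.22, 28.4, 25.2, 12.6 and 24.9 FPKM in WSD/WSD, 14.8, 8.94 and 8.03 in CD/WSD, 49.5 and 22.97 in WSD/CD and 5.53, 5.21, 5.23 and 7.93 in CD/CD livers. Of the WSD/WSD animals, 3 lay above all CD/WSD animals and the WSD/CD pair above all CD/CD animals (1.40 ± 0.35, limma adjusted p = 0.139).

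Nitrogen metabolism was split, with 4 of 21 genes higher and 4 lower (median 0.01). ASL, which splits argininosuccinate, differed by 0.77 ± 0.19, and HPD, an enzyme of tyrosine breakdown, by -0.70 ± 0.18 (limma adjusted p = 0.139 for each). Among 16 drug-metabolising P450 genes, 2 were higher and 4 lower (median -0.19). POR, their electron donor, differed by 0.58 ± 0.17, and CYP2A24 by -0.65 ± 0.17. Metal genes had 2 of 19 higher and 4 lower (median -0.21), among them MT2A, a metallothionein with close copies, at 1.07 ± 0.39 and HJV, a coreceptor of hepcidin control, at -0.52 ± 0.14. DNA and histone enzymes had 4 of 30 higher and 2 lower (median 0.01), with the histone demethylase KDM6B at 0.50 ± 0.13 and the deacetylase SIRT1 at 0.30 ± 0.10. Ribosomal protein genes had 8 of 68 higher and 1 lower (median 0.07), the lower one being RPL6 at -0.69 ± 0.21, whose copies elsewhere in the genome make its value uncertain. None of the genes in this paragraph passed the limma adjustment.

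The remaining pathway lists had few members at an unadjusted p under 0.05. Higher and lower members numbered 2 and 2 of 17 circadian genes (median -0.10), 0 and 2 of 19 NRF2 targets (-0.06), 2 and 0 of 14 cell cycle genes (0.14) and 0 and 0 of 6 fetal liver genes (0.07). Among immune and matrix lists they numbered 1 and 1 of 24 interferon-stimulated genes (0.01), 1 and 0 of 13 NF-kB targets (0.00), 0 and 1 of 18 acute phase proteins (-0.17), 4 and 1 of 28 matrix genes (0.11) and 2 and 0 of 18 TGF-beta genes (0.05). The matrix protease MMP14 differed by 0.45 ± 0.15 and the protease inhibitor TIMP1 by 0.47 ± 0.16.

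Markers of other cell types stood high in WSD/CD replicate 2. No marker of stellate cells and fibroblasts (of 15), endothelium (of 16), Kupffer cells (of 13) or B and plasma cells (of 6) differed at an unadjusted p under 0.05, and their medians were 0.05, 0.00, 0.03 and -0.07. Their list medians stood at 0.70, 0.66, 0.64 and 0.12 above the mean of CD/CD in WSD/CD replicate 2, against -0.09, -0.26, -0.16 and -0.22 in WSD/CD replicate 1. Bile duct markers had 3 of 6 higher (median 0.33): CLDN4 (0.67 ± 0.21), ANXA4 (0.32 ± 0.13) and SPP1 (0.45 ± 0.21). The deviations of the bile duct list were 0.29, 0.12, 0.28, 0.07 and -0.05 in WSD/WSD livers and 0.14 and 0.78 in WSD/CD livers. With both weaning diets weighted equally ANXA4 and SPP1 differed by 0.33 and 0.50, and without WSD/CD replicate 2 by 0.16 and 0.11. T and NK cell markers had 3 of 14 higher (median 0.18), led by the T cell receptor subunit CD3D (0.41 ± 0.15). Neutrophil and monocyte markers had 1 of 6 and adipocyte markers 1 of 4 higher (medians 0.24 and 0.34), and no red cell marker reached the level for testing. All 8 Y-linked genes had a negative difference (median -1.44). The part of these cell types in the other differences was not tested.

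Among animals weaned to WSD, maternal WSD changed no gene past the threshold. At an unadjusted p under 0.05, limma found 694 genes (5.52%), 306 higher (2.43%) and 388 lower (3.09%). CARD17, whose human counterpart inhibits inflammatory caspase activation, was at 0.999, 0.978, 0.967, 2.69 and 1.77 FPKM in WSD/WSD livers and listed at 0 in every CD/WSD, WSD/CD and CD/CD liver below 31000 (limma adjusted p = 0.0566, between 0.0279 and 0.329 over the 14 of 19 alternatives that tested it). It reached the level for testing only through the WSD/WSD livers. Above 31000 it was listed at 0 in both WSD/WSD livers and in all 8 WSD/CD livers, while the highest CD/WSD and CD/CD livers reached 1.80 and 1.47 FPKM. CAPSL, a calcium-binding protein, was at 2.96, 4.93, 4.01, 4.16 and 4.12 FPKM in WSD/WSD, 1.18, 0.305 and 1.64 in CD/WSD, 4.98 and 4.25 in WSD/CD and 5.22, 6.93, 5.40 and 4.82 in CD/CD livers. The 3 CD/WSD livers were the low ones, under all other 11 (1.35 ± 0.20 in WSD-weaned animals, limma adjusted p = 0.0566). CYP2C19 differed by 3.01 ± 0.48 (limma adjusted p = 0.0812). EPSTI1, an interferon-inducible gene, was at 4.38, 2.80, 3.92, 3.04 and 4.20 FPKM in WSD/WSD and 9.10, 6.03 and 11 in CD/WSD livers, with no overlap (-1.04 ± 0.22, limma adjusted p = 0.745). APOH differed by -0.58 ± 0.13 here (limma adjusted p = 0.745). Without CD/WSD replicate 3, 2 genes passed, and without WSD/WSD replicate 5, 1 did.

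Among animals weaned to CD, the 2 WSD/CD livers differed from the 4 CD/CD livers at 375 genes (2.98%), of which 251 were higher (2.0%) and 124 lower (0.986%). Among the genes that rose were the orphan receptor NR4A3, the AP-1 subunits FOSL2 and JUNB, the IGF-binding protein IGFBP1 and the coactivator PPARGC1A. Among those that fell were the bile acid genes NR0B2 and CYP8B1, the sterol exporter ABCG8 and the amino acid genes OTC and TDO2. The median over all genes was -0.04. The call rests on 2 animals that differ from each other: 118 genes (98 higher, 20 lower) passed without WSD/CD replicate 2 and 446 without replicate 1, and the lone animal is then assumed to vary like the other groups. Without CD/CD replicate 1, 205 passed. Over all tested genes, 1.91% were above and 0.581% under all other 31 libraries in both WSD/CD animals. The called genes were picked for a difference in these same animals, so a larger share among them was built in. Of the 124 lower genes, 13 (10.5%) were under all other 31 libraries in both. Of the 375, 72 passed under all 19 alternatives, 62 of them higher and 10 lower, and 132 of the 251 higher genes were above all other 31 libraries in both animals.

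**Figure D3:**
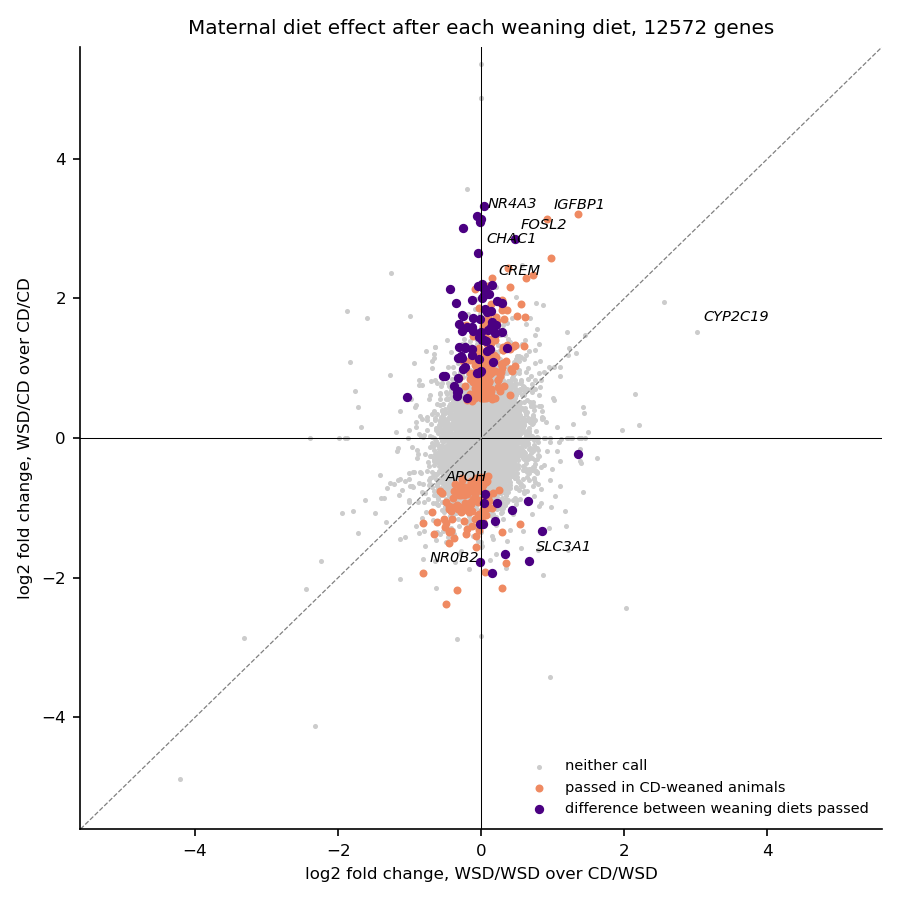
Log2 fold change of each tested gene for maternal diet, WSD/CD over CD/CD (vertical) against WSD/WSD over CD/WSD (horizontal); orange genes passed in CD-weaned animals and purple ones passed the test of the difference. NR4A3 lies at 3.14 on the vertical axis and close to 0 on the horizontal one, while CYP2C19 lies at 1.52 and 3.01.

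NR4A3, an orphan nuclear receptor and immediate early gene, had the smallest p. It was at 0.0537, 0.342, 0.259, 0.161 and 0.104 FPKM in WSD/WSD, 0.167, 0.195 and 0.187 in CD/WSD, 9.79 and 8.19 in WSD/CD and 0.138, 0.109, 0.0943 and 0.184 in CD/CD livers. Only the 2 WSD/CD livers were above 1 FPKM among the 14 (3.14 ± 0.13, limma adjusted p = 1.42e-08). Its relatives NR4A1 (1.92 ± 0.30) and NR4A2 (1.74 ± 0.35), which were picked after their values were seen, also passed, although neither did without WSD/CD replicate 2. NR4A3 reached the mean of 0.5 FPKM required for testing only through the WSD/CD pair, since its mean in the other 12 livers was 0.166 FPKM. The same held for CHAC1 (0.205 FPKM) and ARG2 (0.463 FPKM), and in all for 11 of the 251 higher genes and 0 of the 124 lower ones, so these 11 entered the test because they were high there. CREM, a cAMP-responsive transcription factor picked after its values were seen, was at 237 and 269 FPKM in WSD/CD and 43.3, 60.3, 51.3 and 66.1 in CD/CD livers (2.19 ± 0.25, limma adjusted p = 0.000291).

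C15H9orf72, whose human counterpart acts in autophagy and vesicle traffic, was at 22.9 and 29.6 FPKM in WSD/CD and 3.10, 3.94, 3.14 and 3.16 in CD/CD livers. JMY, an actin nucleator and transcription cofactor, was at 12.2 and 11.9 FPKM in WSD/CD and 1.87, 1.69, 2.04 and 1.74 in CD/CD livers. ELL2, a factor of transcription elongation, was at 163 and 172 FPKM in WSD/CD and 46.3, 34.1, 43.3 and 47.2 in CD/CD livers. In none of the 3 genes did the groups come near each other, and the differences were 2.65 ± 0.14, 2.21 ± 0.19 and 1.96 ± 0.17 (limma adjusted p = 1.86e-07, 1.93e-05 and 1.93e-05). CHAC1 was at 6.70 and 11.2 FPKM in WSD/CD and 0.0931, 0.189, 0 and 0.289 in CD/CD livers, where 1 value was listed at 0 (3.09 ± 0.23, limma adjusted p = 7.86e-06). ZNF331, a zinc finger protein, was at 32.8 and 25.9 FPKM in WSD/CD and 6.76, 6.41, 5.95 and 7.72 in CD/CD livers (1.97 ± 0.17, limma adjusted p = 1.93e-05).

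The 10 largest increases, listed after their values were seen, were ARG2, GPCPD1, NR4A3, IGFBP1, CHAC1, IL1RN, FOSL2, C15H9orf72, FST and JUNB, with differences between 2.43 and 3.32. ARG2, a mitochondrial arginase, was at 7.55 and 18.9 FPKM in WSD/CD and 0.272, 0.151, 0.205 and 0.654 in CD/CD livers. GPCPD1, which breaks down glycerophosphocholine, was at 27.7 and 45.2 FPKM in WSD/CD and 2.41, 2.49, 3.07 and 4.34 in CD/CD livers. The WSD/CD livers were the high ones for both, with replicate 2 above replicate 1. IL1RN, the interleukin-1 receptor antagonist, was at 41.8 and 16.7 FPKM in WSD/CD and 0.896, 5.47, 1.89 and 2.86 in CD/CD livers, and FST, an activin-binding secreted protein, at 103 and 116 and 14.8, 20.01, 19.4 and 16.3 FPKM. Of these 10, FST and JUNB did not pass without WSD/CD replicate 2, while the other 8 passed when either animal was left out.

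The 10 largest decreases, listed likewise, were NREP, TSKU, ANKS4B, NR0B2, PALM3, ABCG8, CYP8B1, LIME1, SLC3A1 and TDO2, with differences between -1.66 and -2.38. ABCG8, which exports sterols into bile, was at 2.23 and 2.76 FPKM in WSD/CD and 19.8, 6.61, 12.2 and 13.1 in CD/CD livers. CYP8B1, the sterol hydroxylase that makes cholic acid, was at 24.4 and 10.8 FPKM in WSD/CD and 64.3, 32.2, 75.8 and 75.8 in CD/CD livers. The WSD/CD values were under all CD/CD values for both. TSKU, a secreted leucine-rich protein, was at 16.9 and 26.9 FPKM in WSD/CD and 82.8, 69.8, 108 and 156 in CD/CD livers, and SLC3A1, a subunit of a cystine transporter, at 0.107 and 0.189 and 4.96, 1.96, 3.02 and 2.26 FPKM. Only TSKU, LIME1 and TDO2 of these 10 also passed without WSD/CD replicate 2.

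By list, beside backgrounds of 2.0% higher and 0.986% lower, 5 of 21 immediate early and heat shock genes rose in WSD/CD livers and none fell: ATF3 (2.30 ± 0.31), FOSL2 (2.84 ± 0.26), JUNB (2.43 ± 0.50), KLF6 (1.32 ± 0.28) and the messenger-RNA decay factor ZFP36 (1.71 ± 0.28). Of these 5, ATF3, FOSL2 and ZFP36 also passed without WSD/CD replicate 2. The endoplasmic reticulum stress genes ATF6 (1.08 ± 0.19), CHAC1 and HERPUD1 (1.66 ± 0.26) rose, 3 of 22, and none fell, with a list median of -0.07. CHAC1 is in this count only because the WSD/CD pair lifted it to the level for testing. In the insulin and IGF axis IGFBP1 (3.13 ± 0.52) and the insulin receptor substrate IRS2 (1.83 ± 0.36) rose, 2 of 22, with a list median of -0.07. Among 30 nuclear receptors and coregulators, PPARGC1A (2.34 ± 0.45), the glucocorticoid receptor NR3C1 (0.67 ± 0.16) and the bile acid regulator NR5A2 (1.30 ± 0.16) rose, and NR0B2 (-1.93 ± 0.43) fell. Of these 4, PPARGC1A and NR5A2 also passed without WSD/CD replicate 2, and NR5A2 alone without replicate 1.

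Of 21 nitrogen genes, ASL (1.31 ± 0.24) and KMO, an enzyme of tryptophan breakdown (1.09 ± 0.26), rose. The glutamine synthetase GLUL (-1.09 ± 0.24), the urea cycle activator enzyme NAGS (-1.32 ± 0.26), OTC (-1.06 ± 0.24) and the tryptophan dioxygenase TDO2 (-1.66 ± 0.32) fell. Without WSD/CD replicate 2 the list had 0 higher and 2 lower (NAGS and TDO2), and without replicate 1 it had 1 higher and 1 lower (ASL and GLUL). Among lipid genes, ANGPTL4, an inhibitor of lipoprotein lipase (1.21 ± 0.24), and LPL, lipoprotein lipase itself (1.51 ± 0.23), rose, and GPAM (-1.56 ± 0.36) fell. Of these 3, LPL alone passed without WSD/CD replicate 2. APOH (-0.76 ± 0.15) and FOXA2 (-1.04 ± 0.24) fell among the 15 hepatocyte markers, and all 15 had a negative difference (median -0.57), but neither APOH nor FOXA2 passed without WSD/CD replicate 2. With the Y-linked level as a covariate 222 genes passed (156 higher, 66 lower), and with the mitochondrial share, which was 2.95% and 6.94% in the WSD/CD animals, 120 passed (102 higher, 18 lower).

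Maternal effects after the WSD and CD weaning diets differed from each other at 85 genes (0.676%), 14 with the more positive effect in WSD-weaned animals (0.111%) and 71 with the more negative (0.565%). NR4A3 had a difference of -3.14 ± 0.17 (limma adjusted p = 5.41e-07), C15H9orf72 of -2.69 ± 0.19, CHAC1 of -3.10 ± 0.30, ZNF331 of -2.10 ± 0.22 and JMY of -2.20 ± 0.24. All 5, named for the smallest p of this test, had effects close to 0 in WSD-weaned animals, between -0.13 and 0.01. In the WSD-weaned livers NR4A3 was at 0.0537 to 0.342 FPKM and CHAC1 at 0 to 0.763, where the +1 keeps any effect small. NR4A3 and CHAC1 were tested only because they were high in the WSD/CD pair. PTRH2 was higher with maternal WSD at both diets, by 0.37 ± 0.12 after WSD and 1.29 ± 0.14 after CD weaning, and the sizes differed by -0.92 (limma adjusted p = 0.0358). The count was 150 without WSD/CD replicate 1 and 37 without its replicate 2, 31, 38 and 38 without CD/WSD replicates 1, 2 and 3, 38 and 40 without CD/CD replicates 1 and 3, and 49 without WSD/WSD replicate 4. With the mitochondrial share as a covariate it was 38, and with the Y-linked level 73. The weaning diets lay in separate stretches of animal numbers, so a difference between them cannot be told apart from number order.

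The 14 animals were then set against the 19 numbered above 31000, which comprised 2 WSD/WSD, 3 CD/WSD, 8 WSD/CD and 6 CD/CD. The maternal effect, with weaning diet as a term, differed past the threshold at no gene of 12497. At an unadjusted p under 0.05, limma found 1227 genes (9.82%), 1052 of them more positive below 31000 (8.42%) and 175 more negative (1.4%). The all-gene median of this contrast was itself positive, at 0.11. It was -0.02 after median-of-ratios scaling and -0.0013 without the 5 animals numbered above 34000. The 5 smallest p-values belonged to the ubiquitin ligase SIAH1 (1.06 ± 0.21), PTRH2 (1.09 ± 0.22), the nucleolar protein NIFK (0.79 ± 0.16), midnolin MIDN (1.36 ± 0.29) and the vesicle tethering subunit VPS18 (1.11 ± 0.24), each with limma adjusted p = 0.0924.

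Within CD-weaned animals alone, a comparison added after the data were seen, the effect below 31000 differed from that above it at 192 genes (1.54%), 182 more positive (1.46%) and 10 more negative (0.08%). This contrast carried an all-gene median of 0.15, and -0.02 after median-of-ratios scaling, which called 180 genes (157 more positive, 23 more negative). Without WSD/CD replicate 2 of the animals below 31000, 105 genes passed (104 more positive, 1 more negative). NR4A3 was at 0.0610, 0.198 and 0.567 FPKM as lowest, median and highest in the 8 WSD/CD livers above 31000, and at 0.0255, 0.216 and 1.28 in the 6 CD/CD livers there. None of those 8 reached the 2 WSD/CD livers below 31000, and the effects differed by 3.20 ± 0.24 (limma adjusted p = 6.46e-10). In this comparison too, NR4A3 reached the level for testing only because it was high in those 2 livers. FOSL2 was at 1.03, 1.997 and 2.83 FPKM in WSD/CD and 1.98, 3.35 and 5.09 in CD/CD livers above 31000, where the median was lower in WSD/CD livers, and the effects differed by 3.48 ± 0.32 (limma adjusted p = 5.19e-08).

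**Figure D4:**
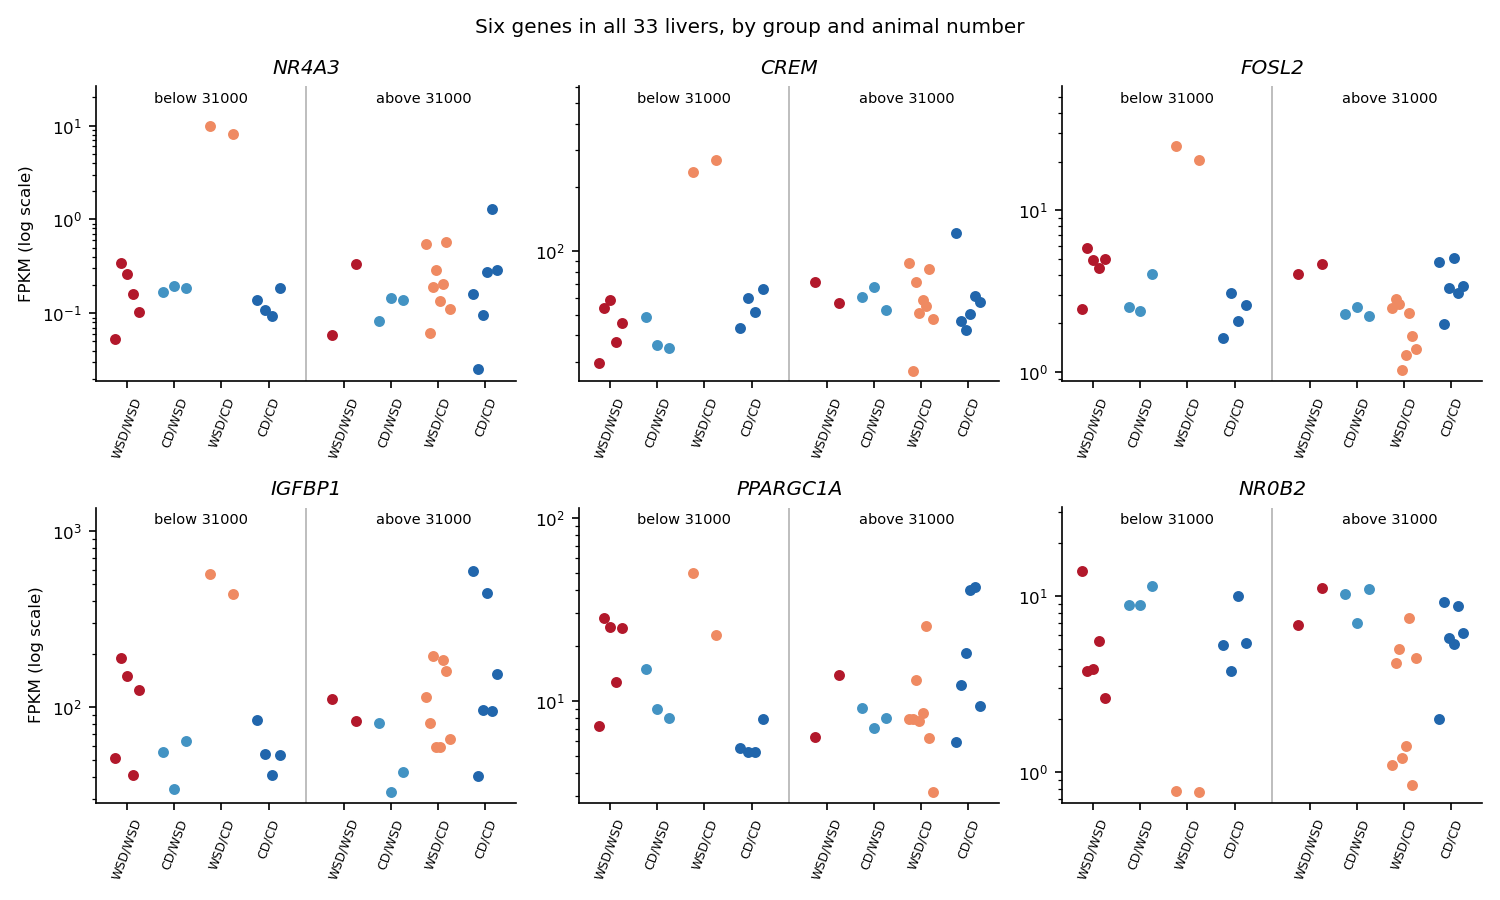
FPKM of 6 genes on a log scale in all 33 livers, by group, with animals below 31000 on the left of each panel and those above it on the right; each point is 1 animal. NR4A3, CREM and FOSL2 are highest in the 2 WSD/CD livers below 31000. IGFBP1 and PPARGC1A reach similar levels in some CD/CD livers above 31000, and NR0B2 reaches similar low levels in WSD/CD livers there. PPARGC1A is also above the lower of the 2 in some WSD/WSD livers below 31000 and in a WSD/CD liver above it.

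IGFBP1 was at 58.9, 97.5 and 194 FPKM in WSD/CD and 40.4, 125 and 589 in CD/CD livers above 31000. There CD/CD replicates 5 and 8, at 589 and 441 FPKM, reached the level of the WSD/CD pair below 31000. The effects differed by 3.74 ± 0.86 (limma adjusted p = 0.0184). NR0B2 was at 0.835, 2.78 and 7.45 FPKM in WSD/CD and 1.99, 5.93 and 9.19 in CD/CD livers above 31000. Its effects, -1.93 below and -0.89 above 31000, did not differ past the threshold (-1.04 ± 0.63, limma adjusted p = 0.610). APOH was lower with maternal WSD by -0.76 below and -0.69 above 31000 in CD-weaned animals, with a difference of -0.08 ± 0.47. Without the 5 animals numbered above 34000 that difference was -0.74 (limma adjusted p = 0.213), and after median-of-ratios scaling it was -0.32.

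In the CD-weaned animals above 31000, 1480 genes passed (11.8%), 229 of them higher (1.83%) and 1251 lower (10%), but 3 (0.0241%) without the 5 animals numbered above 34000, all of them WSD/CD. After median-of-ratios scaling 748 passed (488 higher, 260 lower), and the all-gene median went to 0.00 instead of -0.20. Of the 375 genes called below 31000 and the 1480 called above it, 57 were in both, 15.2% of the first list and 3.85% of the second, and 185 of the 372 tested in both had the same sign. Without the animals above 34000, 134 genes differed between the ranges (117 more positive, 17 more negative below 31000).

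**Figure D5:**
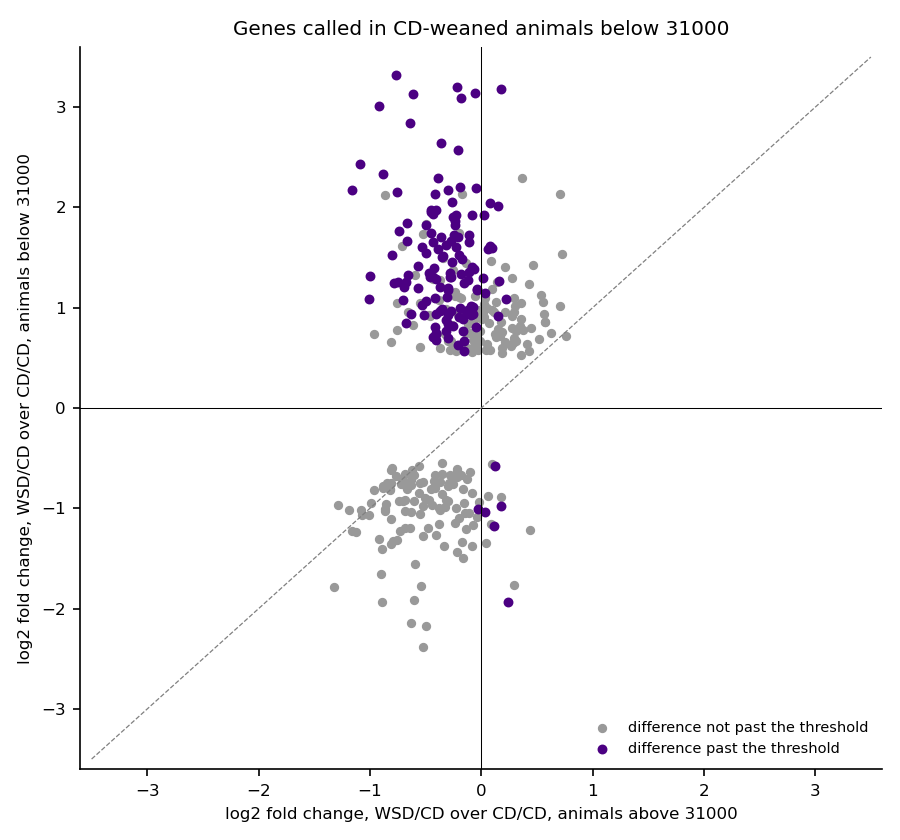
Log2 fold change of WSD/CD over CD/CD in animals below 31000 (vertical) against animals above 31000 (horizontal), for the genes called below 31000 and tested in both ranges; purple genes passed the test of the difference. The genes higher below 31000 scatter around and left of 0 above it, and most genes lower below 31000 are also negative above it. The median over all genes was itself negative above 31000, at -0.20, and 185 of the 372 genes shown (49.7%) had the same sign in both ranges.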

How the data were processed

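Liver RNA purified on Qiagen RNeasy columns was made into directional mRNA libraries with a Swift kit and sequenced as paired reads on a NovaSeq instrument, per the labels' protocols. The authors deposited FPKM values for 34882 genes; GSNAP, SAMtools and Cufflinks are the tools listed, per the submitters' processing notes, and the genome build was not given in the sources used here. Counts were not used, so total depth is unknown. The code 999999999 was treated as missing, which left 11 genes, albumin among them, out of the tests.

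Libraries were taken by the animal number in their titles and grouped by their labels. log2(FPKM + 1) of genes whose mean FPKM reached 0.5 was tested with limma 3.58.1 (R 4.3.3, intensity trend, Benjamini-Hochberg), with maternal and postweaning diet as terms (11 residual degrees of freedom) or with 4 group means (10). The fit over all 33 libraries added the number range and its products with both diets. The fits were checked on simulated data. Mitochondrial share and Y-linked level were compared by exact permutation within weaning diet over 840 arrangements (Python 3.11.15).

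The members, the 38 gene lists (27 pathways, 10 cell types, Y-linked genes) and the tests were chosen with earlier results of these data known. Genes named are the 5 smallest p-values per direction for maternal diet, members of each list with the largest moderated t, and the 5 smallest p-values of the other comparisons; others are marked as chosen after their values were seen, and some results are not reported here. Alternatives were another pseudocount, filters, scalings, sample weights, a robust variance model, covariates and leaving out each library. Sequences were not used here.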

Additional observations from a re-analysis of the deposited data

Results flagged for a closer look

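In 13 of 194 sets of 4 or 5 livers of 1 group looked at, 1 liver lay far from the others, and chance alone marks about 1 set in 20. Each value is followed by the next nearest one. In WSD/WSD replicate 1, FZD8 was at 14.5 FPKM (next 17.2) and NR0B2 was at 13.7 FPKM (next 5.54). In WSD/WSD replicate 2, ANXA4 was at 5.66 FPKM (next 6.97) and GPCPD1 was at 5.27 FPKM (next 2.78). In WSD/WSD replicate 5, APOA4 was at 594 FPKM (next 88.0) and POR was at 217 FPKM (next 119.6). In CD/CD replicate 1, CLDN4 was at 1.59 FPKM (next 0.285). In CD/CD replicate 2, G6PC was at 10.4 FPKM (next 22.03), GPAM was at 27.2 FPKM (next 46.5) and C15H9orf72 was at 3.94 FPKM (next 3.16). In CD/CD replicate 4, HPD was at 871 FPKM (next 761.9), PPARGC1A was at 7.93 FPKM (next 5.53) and NR4A1 was at 2.20 FPKM (next 1.28).

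The effect of maternal diet differed between weaning diets, by limma's interaction term, for 20 of the 95 genes looked at singly, which include genes chosen for that difference or for the size of their CD-weaned effect, beside 0.676% of all genes. The value is the effect in WSD-weaned minus that in CD-weaned animals on the log2 scale. It was negative for PTRH2 (-0.92), FOSL2 (-2.38), CHAC1 (-3.10), IL1RN (-3.26), LPL (-1.52), NR5A2 (-1.61), ARG2 (-3.28), GPCPD1 (-3.25), CREM (-2.04), NR4A3 (-3.14), C15H9orf72 (-2.69), JMY (-2.20), ELL2 (-1.73), ZNF331 (-2.10) and EPSTI1 (-1.63) and positive for TDO2 (1.99), PALM3 (2.08), LIME1 (1.76), SLC3A1 (2.44) and CAPSL (1.58). Adjusted p-values ran over 5.41e-07 to 0.0494. CD-weaned effects rest on 2 WSD/CD livers, and NR4A3, CHAC1 and ARG2 were tested only because they were high in those livers.

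In CD-weaned animals the maternal effect below 31000 minus that above 31000 was positive and past limma's threshold for PTRH2 (1.69), CCDC86 (1.57), POR (1.52), IGFBP1 (3.74), ANGPTL4 (1.58), ATF3 (2.68), FOSL2 (3.48), KLF6 (1.99), HERPUD1 (2.33), ATF6 (1.78), CHAC1 (3.28), ASL (1.74), PPARGC1A (3.22), IL1RN (3.92), LPL (1.86), JUNB (3.52), ZFP36 (2.07), KMO (2.09), NR5A2 (1.77), ARG2 (4.08), GPCPD1 (3.00), FST (2.79), CREM (2.24), NR4A1 (1.90), NR4A3 (3.20), C15H9orf72 (3.01), JMY (2.40), ELL2 (2.40), ZNF331 (2.42), SIAH1 (1.16), NIFK (1.04), MIDN (1.54) and VPS18 (1.98), and negative for PALM3 (-2.17). Adjusted p-values ran over 3.68e-10 to 0.0465. This comparison was chosen after the data were seen, some of these genes were chosen for their CD-weaned effect, and over all genes 1.54% passed. NR4A3 and CHAC1 reached the level for testing here only through the WSD/CD pair below 31000. The all-gene median of this difference was 0.15, and -0.02 after median-of-ratios scaling.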

How the results depend on the processing

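No paired analysis was possible because the labels give no replicate numbers that join animals across groups. For maternal diet over both weaning diets, 0 genes passed, but 1 with a filter at a mean FPKM of 2, 2 with sample weights, 226 with both weaning diets weighted equally, and 0 to 41 when each library was left out. The equal weighting gave 48 without WSD/CD replicate 2, 86 with the Y-linked level and 53 with the mitochondrial share as a covariate (these 3 chosen after seeing the data). In WSD-weaned animals 0 became 2 with a pseudocount of 0.1, 1 with median-of-ratios scaling and 0 to 2 without single libraries. In CD-weaned animals 375 became 591 with that scaling, 118 to 502 without single libraries, and, chosen after seeing the data, 222 with the Y-linked level and 120 with the mitochondrial share as a covariate. The interaction's 85 became 31 to 150 without single libraries and 38 with the mitochondrial share. Below against above 31000, 0 genes passed under any alternative run. For CD-weaned animals below against above 31000, 192 became 105 without WSD/CD replicate 2, and above 31000 alone 1480 became 748 with median-of-ratios scaling and 3 without animals above 34000.

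The mitochondrial difference of 0.916 became -0.0828 without WSD/CD replicate 2 and ran between -0.0828 and 1.91 without single libraries. The Y-linked difference of -1.64 was -3.17 with a pseudocount of 0.1 (exact permutation p = 0.081) and ran between -1.89 and -1.40 without single libraries, with p under 0.05 without CD/WSD replicate 2 (p = 0.0381) or CD/CD replicate 1 (p = 0.0482) in the exact permutation test. With all 33 libraries and number series as a factor, CPT1A turned to -0.23 and SCD to 0.21, and without both WSD/CD animals IL1RN turned to -0.25 and LPL to -0.0085. The cause of these changes was not tested. Counting each gene or list median once per alternative, 3560 results kept their direction and side of the threshold (for a list median, moved by less than the spread between CD mothers) and 13 list medians moved by more. A gene newly passed 89 times (36 genes) and no longer passed 160 times (31 genes). Total depth is unknown, and with 2 WSD/CD animals the CD-weaned values rest on few libraries.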
